A study of Mus musculus with 4 samples.

Results

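Adipogenic transcription factors are the DNA-binding proteins that commit a stromal precursor to the fat cell fate. The 8 genes described here, Pparg, Cebpa, Cebpb, Cebpd, Klf15, Ebf1, Zfp423 and Srebf1, were chosen by name. They were found through the probe names and transcript identifiers of the array, and they are read by 13 of 41174 probes, or 8 of 27597 genes. Expression was measured in OP9 cells, a stromal line from osteopetrotic mice that is grown as a support layer for blood progenitors and can turn into fat cells in culture. The Wnt3A group (2 arrays) carried the retroviral vector LZRS-IRES-GFP with the Wnt3A gene, and the Control group (2 arrays) carried LZRS-IRES-GFP without it. Cells of both groups thus carried the vector and its GFP marker, and both were grown in the same medium with fetal calf serum. The labels give 2 replicates per condition without stating that they were separate cultures, so the p-values measure only the spread between these samples, which may be technical. They also do not state whether the cells of a group are 1 clone.

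In the textbook order of adipogenesis, C/EBPβ and C/EBPδ are made first and switch on PPARγ and C/EBPα, which then maintain each other and turn on the genes of the fat cell. Zfp423 and Ebf1 act earlier, marking or committing the precursor, while Klf15 and SREBP1 act beside PPARγ on its expression and on lipid synthesis. Canonical Wnt signalling is known in preadipocytes for holding PPARγ and C/EBPα down. The comparison of Wnt3A with Control arrays shows which of these genes differed when OP9 cells carried the Wnt3A gene.

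The values are linear intensities from the deposited table, in which the median of every array is 1. A probe was called above the floor where it exceeded an estimated detection limit, which was 0.0533 and 0.0729 in the Wnt3A arrays and 0.0702 and 0.0631 in the Control arrays. Between 80.7% and 83.7% of spots lay above it. The number of arrays limits the precision: the median standard error of a log2 change was 0.37 over 22859 genes tested, and the smallest change that passed the test was 2.86 in size. The scanner files deposited beside the table did not follow it. Each of the 4 table columns ranked its probes most like the scanner file of Control replicate 2 (Spearman's rho 0.826 to 0.845 across spots), and rho with the scanner file of its own label was 0.684 and 0.746 for the Wnt3A arrays and 0.637 and 0.826 for the Control arrays. The scanner file of Control replicate 1 was faint, with 41.8% of spots well above background against 71.6% to 85.7% in the other 3. Results from both sources are given for every member. Of 10 stromal marker genes, 10 were above the floor in each Wnt3A array and 9 in each Control array. The single Wnt3a probe read 0.0112 and 0.123 in the Wnt3A arrays, against 0.0151 and 0.0134 in the Control arrays, and was above the floor in 1 array. Whether the vector's insert holds the probe's sequence is not given, so it does not check the labels.

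Pparg, Cebpa, Cebpb, Ebf1 and Zfp423 were lower in both Wnt3A arrays than in both Control arrays, by 2.18-fold to 6.92-fold. Cebpd, Klf15 and Srebf1 overlapped between the groups. None of the 8 passed limma's test at an adjusted p of 0.05, a threshold passed by 0.761% of all genes tested (0.306% lower, 0.455% higher). At an unadjusted p under 0.05 in limma, 5 of 8 were lower and 0 higher, against 6.94% and 6.78% of all genes. The groups did not overlap, with Wnt3A lower, in 5 of 8 members and in 24.4% of all genes, or 23.8% of genes above the floor on all 4 arrays, as all 8 members were. With Wnt3A higher the groups were apart in 0 members and in 21.1% of all genes. The log2 change was under 0 in 7 of 8 members (51% of all genes) and -1 or lower in 6 of 8 (9.83%). The median log2 change was -1.32 over the 8 members and -0.01 over all genes tested. In bulk RNA, fewer cells that express a gene and less RNA per cell cannot be told apart. The plot of intensities by array shows the 5 separated genes and the 3 that overlapped.

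**Figure D1:**
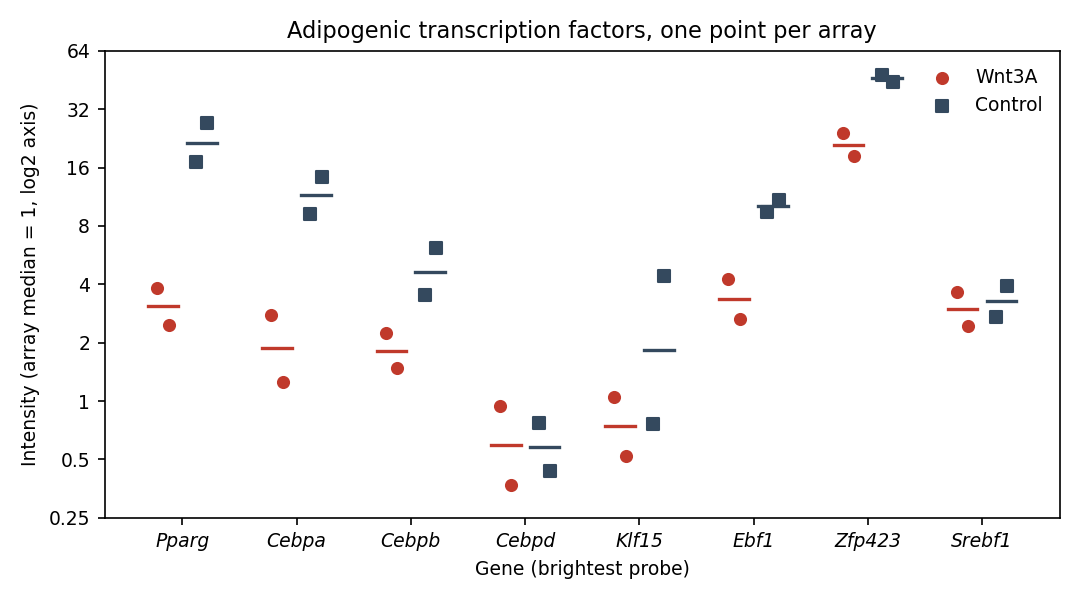
Intensity of the brightest probe of each gene (log2 axis, array median 1), with red circles for the 2 Wnt3A arrays, dark squares for the 2 Control arrays and a bar at each group's geometric mean. Pparg, Cebpa, Cebpb, Ebf1 and Zfp423 show Wnt3A arrays below both Control arrays, while Cebpd, Klf15 and Srebf1 overlap. Heights of different genes are not comparable, since probes differ in how strongly they hybridise.

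The 2 factors that define the fat cell differed most. Pparg, the nuclear receptor without which fat cells do not form, had an intensity of 3.83 and 2.47 in the Wnt3A arrays, against 17.1 and 27.0 in the Control arrays. The groups were far apart and the arrays within a group differed by 1.55-fold (Wnt3A) and 1.58-fold (Control). Pparg was 6.92-fold lower in Wnt3A, a log2 change of -2.79 ± 0.40 (SE, 95% confidence interval -3.88 to -1.71, n = 2 arrays each). Its adjusted p in limma was 0.0957, the smallest of the 8 members, and it stood at place 410 of 22859 genes by p. Its probe A_51_P106799 lies at chr6:115455814-115455873 (mm8, plus strand) and was printed in 10 spots per array. Those spots ranged from 3.67 to 3.94 and from 2.28 to 2.59 in the Wnt3A arrays, and from 16.2 to 17.9 and from 25.3 to 28.3 in the Control arrays. Their coefficient of variation was 2.35% to 4.19%. The spread between arrays of a group was thus larger than the spread between spots, and the 10 spots of an array count as 1 measurement. With 1 array left out in turn, the log2 change ran from -3.12 to -2.46.

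**Figure D2:**
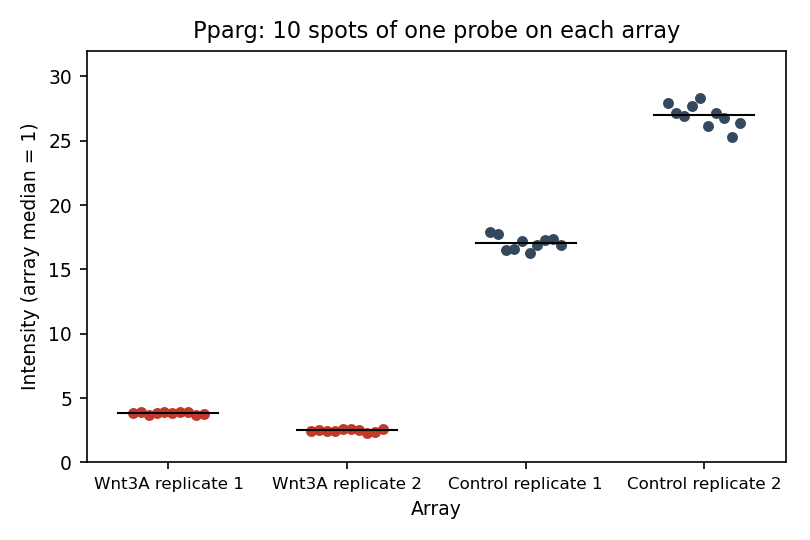
Intensity (array median 1) of the 10 spots of the Pparg probe on each array, with a line at the median of the 10. Spots cluster tightly within an array, and the 2 Wnt3A arrays (medians 3.83 and 2.48) lie below the 2 Control arrays (17.0 and 27.0).

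Cebpa encodes C/EBPα, the partner that keeps Pparg on and gives the fat cell its insulin response. Its intensity was 2.79 and 1.26 in the Wnt3A arrays, against 9.24 and 14.3 in the Control arrays, with no overlap. It was 6.09-fold lower in Wnt3A (log2 change -2.61 ± 0.52, SE, n = 2 each, adjusted p 0.160 in limma). The change was -3.20 without Wnt3A replicate 1 and -2.02 without Wnt3A replicate 2. A second Cebpa probe, A_52_P168567, read 0.464 and 1.21 in the Wnt3A arrays, against 4.74 and 14.6 in the Control arrays. Its log2 change was -3.46 ± 0.75 in the fit of probes (adjusted p 0.186), so the 2 probes moved the same way in the table. The replicates did not keep their order between them: Wnt3A replicate 1 was the higher of its pair for the first probe and the lower for the second.

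The C/EBP genes among the members share a basic leucine zipper, and the brighter probes of Cebpa and Cebpb both lie in the stretch that codes for the zipper. Their sequences are shown because paralogs with a shared domain could share signal. The capitals mark their longest common run, which is 8 bases, and no run between probes of Cebpa, Cebpb and Cebpd is longer. The Cebpa probe is at chr7:34829102-34829161 and the Cebpb probe at chr2:167381014-167381073, both on the plus strand of mm8.
Cebpa A_51_P214087: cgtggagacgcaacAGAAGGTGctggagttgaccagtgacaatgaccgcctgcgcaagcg
Cebpb A_52_P605846: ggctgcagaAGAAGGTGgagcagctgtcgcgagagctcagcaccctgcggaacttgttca

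Of the 2 early C/EBP genes, Cebpb was lower in both Wnt3A arrays and Cebpd overlapped, and the difference between them was not tested. Cebpb, whose product C/EBPβ starts the cascade after hormonal induction, had an intensity of 2.24 and 1.48 in the Wnt3A arrays, against 3.53 and 6.14 in the Control arrays. The groups did not overlap, and Cebpb was 2.54-fold lower in Wnt3A (log2 change -1.34 ± 0.42, SE, n = 2 each, adjusted p 0.301). Its dimmer probe A_52_P63553 read 0.517 and 0.239 in the Wnt3A arrays, against 0.854 and 0.711 in the Control arrays, a log2 change of -1.14 ± 0.51 (adjusted p 0.447 in the fit of probes). Cebpd, which encodes C/EBPδ, read 0.948 and 0.370 in the Wnt3A arrays, against 0.769 and 0.437 in the Control arrays. Both Control values lay between the 2 Wnt3A values. Its log2 change was 0.04 ± 0.63 with a 95% interval of -1.66 to 1.75, which spans changes of more than 1 log2 unit in both directions. The sign of the Cebpd change turned without Wnt3A replicate 1 (-0.65) and without Control replicate 2 (-0.42). Its probe A_51_P444447 lies at chr16:15801944-15802003 on mm8.

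The 2 precursor factors were lower in Wnt3A on all their probes. Zfp423, a zinc-finger protein that marks committed preadipocytes, had an intensity of 24.0 and 18.4 in the Wnt3A arrays, against 48.1 and 44.2 in the Control arrays. The replicates lay within 1.30-fold (Wnt3A) and 1.09-fold (Control) of each other, and Zfp423 was 2.18-fold lower in Wnt3A (log2 change -1.12 ± 0.32, SE, n = 2 each, adjusted p 0.260). Its second probe A_51_P328439 read 0.607 and 0.294 in the Wnt3A arrays, against 1.58 and 2.23 in the Control arrays, a larger log2 change of -2.14 ± 0.49 (adjusted p 0.200 in the fit of probes). Ebf1, an early B-cell factor that also acts upstream of Pparg and Cebpa in fat precursors, had an intensity of 4.28 and 2.64 in the Wnt3A arrays, against 9.49 and 10.9 in the Control arrays. It was 3.0-fold lower in Wnt3A, a log2 change of -1.59 ± 0.37 (adjusted p 0.200). The second Ebf1 probe, A_52_P531838, read 2.97 and 2.14 in the Wnt3A arrays, against 8.65 and 6.25 in the Control arrays, a log2 change of -1.54 ± 0.39 (adjusted p 0.237 in the fit of probes). The 2 Ebf1 probes therefore gave nearly the same change from chr11:44848286-44848345 (A_51_P188054) and chr11:44492539-44492598 (mm8).

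The brighter Zfp423 probe is shown because its 60 bases are annotated over 6607 bases of the genome, chr8:90663728-90670334 on the minus strand of mm8, so it crosses a splice junction and reads spliced transcript. The second probe lies at chr8:90552305-90552364. The Klf15 probe, at chr6:90439701-90439760 on the plus strand of mm8, is set beside it because it codes for part of a zinc finger, the domain that both proteins use to bind DNA. No letters are in capitals in this pair.
Zfp423 A_52_P85795: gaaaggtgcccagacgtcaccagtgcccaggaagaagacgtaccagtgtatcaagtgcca
Klf15 A_51_P299339: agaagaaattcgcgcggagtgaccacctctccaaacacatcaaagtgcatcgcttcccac

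Klf15 and Srebf1 gave no separation. Klf15, a Krüppel-like factor that raises Pparg and the glucose transporter GLUT4 in fat cells, had an intensity of 1.05 and 0.519 in the Wnt3A arrays, against 0.760 and 4.41 in the Control arrays. Control replicate 1 lay between the 2 Wnt3A arrays, and the Control arrays were 5.81-fold apart. The log2 change was -1.30 ± 0.94 (95% interval -3.85 to 1.26, adjusted p 0.645). It was -0.08 without Control replicate 2 and -2.51 without Control replicate 1, so its size rests on which Control array is used. The second Klf15 probe, A_52_P64383, read 0.496 and 0.0336 in the Wnt3A arrays, against 0.180 and 0.112 in the Control arrays, with 1 Wnt3A array below the floor. Srebf1, which encodes the lipogenic factor SREBP1, had an intensity of 3.64 and 2.43 in the Wnt3A arrays, against 2.71 and 3.94 in the Control arrays. Its log2 change was -0.12 ± 0.38 (95% interval -1.14 to 0.89, adjusted p 0.930), and its sign turned without Wnt3A replicate 2 (0.19) or Control replicate 2 (0.09). The probe A_51_P401921, at chr11:60015907-60015966 on the minus strand of mm8, does not tell the transcript forms of Srebf1 apart here.

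**Figure D3:**
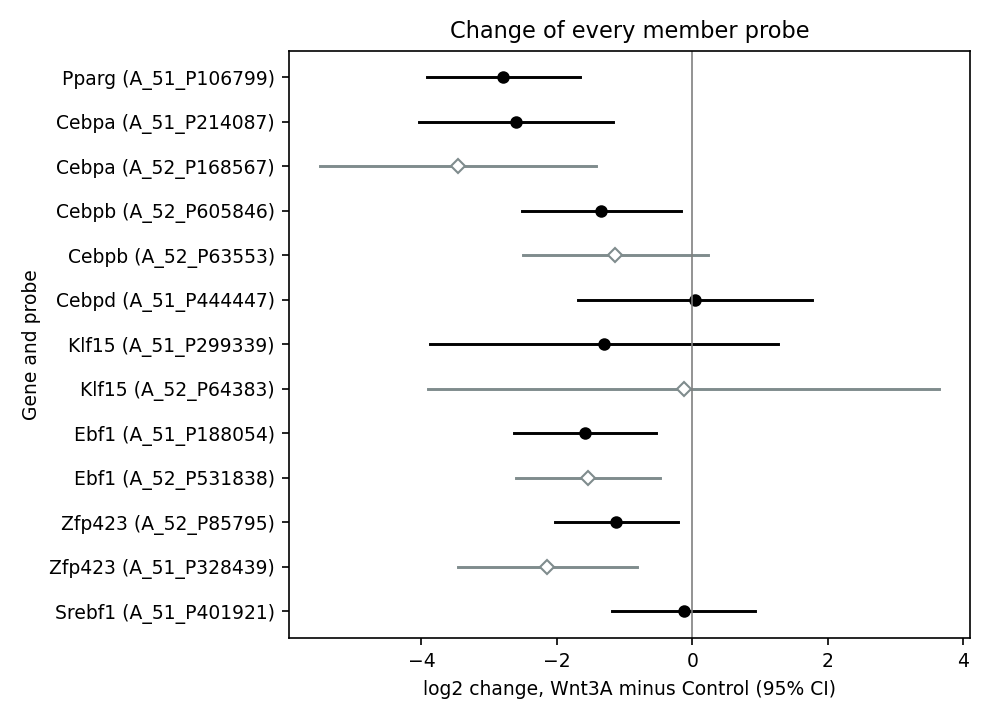
Log2 change, Wnt3A minus Control, of each of the 13 probes with its 95% confidence interval from limma's fit of all kept probes. Filled circles are the brightest probe of a gene and open diamonds its second probe. Every probe of Pparg, Cebpa, Ebf1 and Zfp423 has an interval below 0, the interval of the second Cebpb probe reaches past 0, and those of Cebpd, Klf15 and Srebf1 include 0.

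By their brightest probes, all 8 members were lower in Wnt3A replicate 2 than in Wnt3A replicate 1, whereas the second Cebpa probe was higher there. The same order held in 45.7% of all genes tested. In the Control arrays, 6 of 8 were lower in replicate 1 than in replicate 2, as were 51.0% of all genes. Zfp423 and Cebpd were the other two, higher in Control replicate 1.

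In the scanner files the members did not separate in the same way, as the plot of changes by source shows. The Pparg probe read 393 and 289 in the Wnt3A files, against 80.2 and 298 in the Control files, before any scaling between arrays. After scaling to the 75th percentile the log2 change of Pparg was -0.88, and after normexp background correction with quantile normalization it was -0.63. The first Cebpa probe gave -1.01 and -0.43 in these 2 settings and the second 1.06 and 0.83, so the 2 Cebpa probes moved in opposite directions there. Cebpb gave -0.43 and -0.30, and Klf15 -0.36 and -0.07. Cebpd gave 0.52 and 0.32. By the main probes, the sign turned for Srebf1 (0.10 and 0.47) and, in the first setting only, for Zfp423 (0.04 and -0.04). The second Zfp423 probe turned in both settings (0.36 and 0.16). The second Cebpb probe turned in the second setting only (-0.31 and 0.19). The second Klf15 probe, not well above background in any scanner file, gave -1.89 and 0.05. For Ebf1 the main probe was well above background in 1 of 4 scanner files, that of Control replicate 2, and was not tested there (-4.30 and -0.40). Its place was taken by A_52_P531838, which gave 3.09 and 0.76, against -1.54 for the same probe in the table. That probe read 17.0 and 318 in the Wnt3A files, against 2.26 and 2.10 in the Control files, where it was not well above background, so these 2 Ebf1 changes rest on values near background. No member passed limma's test in either setting, where the adjusted p was above 0.99 for all 8. In the first setting 1 of 8 members had an unadjusted p under 0.05 in limma, against 536 of 20739 genes tested. That member was Ebf1, read by its second probe and higher in Wnt3A, opposite to the table. In the second setting 0 members did, against 320 of 20768 genes.

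**Figure D4:**
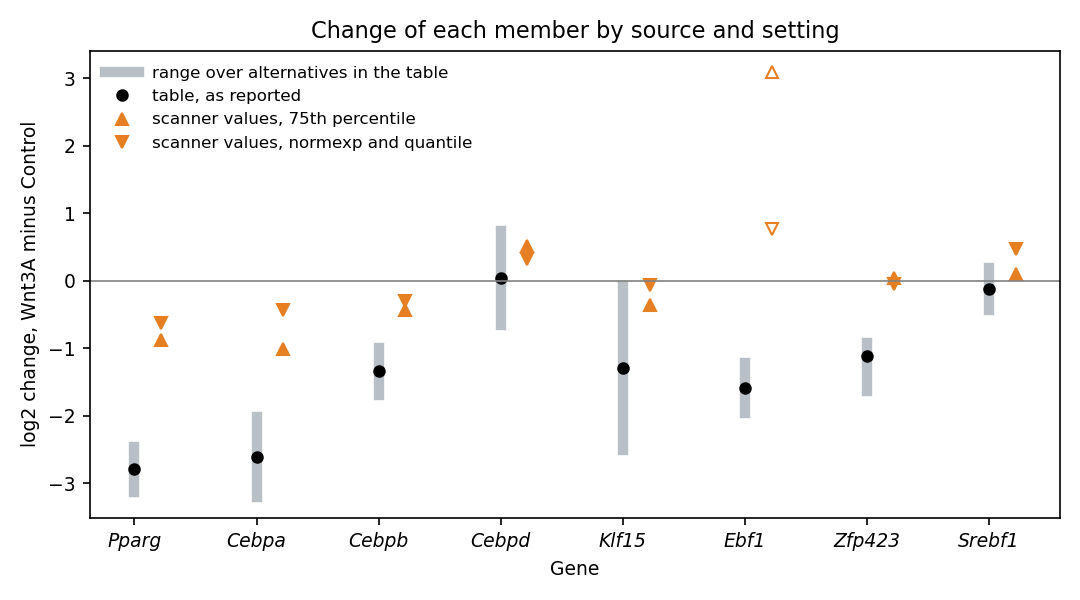
Log2 change, Wnt3A minus Control, of each gene. Black circles are the values from the table, grey bars the range over 13 alternatives within the table, and orange triangles the values from the scanner files under 2 normalizations, open where the scanner values came from the gene's second probe (Ebf1). The table values of Pparg, Cebpa, Cebpb, Ebf1 and Zfp423 stay below 0 over their bars, while the scanner values lie nearer to 0 for Pparg, Cebpa and Cebpb. The open Ebf1 triangles (3.09 and 0.76) and its circle are not the same probe.

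Promoters were read because members that are lower together could share letters upstream of their starts. RefSeq (GRCm38.p6) gave 13 promoters for 7 members, and the 250 bases before each start were searched on both strands. Overlaps between different motifs were allowed. The C/EBP motif TTGCNNAA stood in 2 of 13 member promoters, against 9.56% of 32851 promoters of the same length. One is the third Pparg start, chr6:115421816-115422065 (plus strand), with TTGCCAAA 215 to 208 bases and TTTTGCAA 16 to 9 bases before the start. The other is the second Zfp423 start, chr8:87959596-87959845 (minus strand), with TTGCACAA 131 to 124 bases before the start. They are printed with the C/EBP motif in capitals, since C/EBP proteins are members themselves.
Pparg promoter 3: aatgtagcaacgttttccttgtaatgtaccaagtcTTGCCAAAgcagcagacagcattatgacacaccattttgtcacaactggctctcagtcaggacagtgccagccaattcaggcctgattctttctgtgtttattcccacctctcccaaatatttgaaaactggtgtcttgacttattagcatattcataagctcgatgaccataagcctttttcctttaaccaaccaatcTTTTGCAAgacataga
Zfp423 promoter 2: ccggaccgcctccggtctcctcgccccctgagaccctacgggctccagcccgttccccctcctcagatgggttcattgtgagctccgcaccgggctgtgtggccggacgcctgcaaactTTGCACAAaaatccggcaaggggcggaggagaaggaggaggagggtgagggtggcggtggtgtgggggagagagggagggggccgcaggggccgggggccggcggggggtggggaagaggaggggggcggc

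The TCF/LEF motif CTTTGAT, through which β-catenin acts, was in 0 of 13 member promoters and in 3.21% of all promoters. The PPAR/RXR direct repeat of AGGTCA and AGGTCA around any 1 base, the EBF motif of TCCC and GGGA around any 2 bases, and the SREBP motif TCACNCCAC were also in 0 of 13, against 0.0335%, 0.779% and 1.05% of all promoters. The GC-rich motif CCNCNCCC of Krüppel-like factors was in 12 of 13 (45.9% of all), CCAAT in 5 of 13 (33.8%), TATAAA in 2 of 13 (12.4%) and the E-box CACGTG in 1 of 13 (6.02%), that of Klf15. The GC content of the 13 promoters ran from 40% to 82.4%, and its part in the count of the GC-rich motif was not tested. Some of the 13 are alternative starts of the same gene. Those of Klf15 and Srebf1, which overlapped between the groups, are among them. These matches describe letters in a 250-base window and do not show that a factor binds there.

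The genes nearest in profile to Pparg and Cebpa were found among 22851 tested genes that are not members, by the Euclidean distance between their 4 log2 values after each gene was centred on its own mean. Only genes with a RefSeq name are listed, so any nearer gene that kept the file's name is left out. Nearest of these to Pparg were 4930486L24Rik (distance 0.262), the collagen gene Col5a3 (0.383) and Vmn1r229 (0.404), whose Wnt3A values were below the floor. Nearest to Cebpa were Col5a3 (0.226), the chemokine gene Cx3cl1 (0.284) and Gad1 (0.308), whose Wnt3A values were below the floor. The distance between Pparg and Cebpa was 0.410, which put Cebpa at place 5 for Pparg and Pparg at place 9 for Cebpa. These places count every tested gene, with or without a RefSeq name. Profiles over 4 arrays carry few degrees of freedom, so these distances are a description.

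The other genes of the pathway were read from lists by role. Among PPAR and RXR partners, 0 of 7 passed in either direction in limma (1 with an unadjusted p under 0.05, lower), 6 had a negative change and the median log2 change was -0.35. Nr1h3, which encodes the sterol receptor LXRα, read 4.37 and 4.30 in the Wnt3A arrays, against 9.34 and 11.8 in the Control arrays (log2 change -1.26 ± 0.28, adjusted p 0.190). Rxrb, an RXR partner gene, had a log2 change of -0.84 (adjusted p 0.554), and 1 of its 2 probes moved the other way. The list under the C/EBP name had 3 other genes measured, Cebpg, Cebpz and Ddit3, and a basic leucine zipper was not a condition of that list. Of these 3, 0 passed and 0 had an unadjusted p under 0.05, and the median, which was the value of Cebpz, was 0.09. Ddit3, which encodes the dominant inhibitor CHOP, had a log2 change of 0.35 (adjusted p 0.901) and Cebpz one of 0.09 (0.937). Each of these changes was smaller in size than those of Pparg and Cebpa, and differences between genes were not tested.

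In the family of Klf15, 0 of 10 other Krüppel-like factors passed in limma, 2 had an unadjusted p under 0.05, both higher, and the median was -0.13. Klf7, which inhibits fat cell formation in cultured human preadipocytes, read 62.1 and 61.3 in the Wnt3A arrays, against 22.6 and 20.9 in the Control arrays (log2 change 1.52 ± 0.28, adjusted p 0.142). Klf13 had a log2 change of 1.13 (adjusted p 0.299). Of 5 genes related to Ebf1 and Zfp423, 0 passed, 1 was higher and 2 lower at an unadjusted p under 0.05, and the median was -0.02. Zfp467, a zinc-finger gene that favours fat over bone in stromal cells, read 0.931 and 1.67 in the Wnt3A arrays, against 4.58 and 4.26 in the Control arrays (log2 change -1.82 ± 0.39, adjusted p 0.181). Ebf2, the paralog of Ebf1, moved the other way, at 0.503 and 0.352 in the Wnt3A arrays, against 0.129 and 0.173 in the Control arrays (1.50 ± 0.35, adjusted p 0.198).

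Around Srebf1, 0 of 7 SREBP partners and regulators passed in limma, with 0 at an unadjusted p under 0.05, 6 of 7 negative and a median of -0.58. Mlxipl, the glucose-sensing factor ChREBP, had a log2 change of -0.81 (adjusted p 0.380), and Insig2, which holds SREBP in the endoplasmic reticulum, one of -0.58 (0.535, with 1 of 3 probes the other way). Among 14 SREBP1 target genes of fatty acid synthesis, 0 passed, 3 were higher and 1 lower at an unadjusted p under 0.05, and the median was 0.20. Acacb, an acetyl-CoA carboxylase, had a log2 change of 1.64 (adjusted p 0.147) with its 2 probes in opposite directions. Acly, which makes cytosolic acetyl-CoA, had one of -1.15 (0.211). The 14 lipogenic genes thus had a median near 0, as did Srebf1 itself.

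Target genes show the output of PPARγ and C/EBPα in fat cells. Of 24 tested (Lep was below the floor and Pck1 had no probe), 4 fell and 0 rose at an adjusted p under 0.05 in limma, 23 had a negative change and the median was -1.60. Plin4, a coat protein of lipid droplets, read 0.748 and 0.887 in the Wnt3A arrays, against 13.4 and 13.5 in the Control arrays, and fell by 4.04 ± 0.28 on the log2 scale (adjusted p 0.0273). Lpl, the lipase that frees fatty acids from lipoproteins, read 8.58 and 9.38 in the Wnt3A arrays, against 89.6 and 105 in the Control arrays, and fell by 3.42 (adjusted p 0.0363, 1 of 2 probes past the threshold). The fatty acid transporter gene Cd36 read 0.257 and 0.225 in the Wnt3A arrays, against 2.79 and 4.34 in the Control arrays (log2 change -3.84, adjusted p 0.0388, 1 of 2 probes past the threshold). Adipoq, which encodes adiponectin, read 1.82 and 3.72 in the Wnt3A arrays, against 52.9 and 67.7 in the Control arrays (-4.51 ± 0.44, adjusted p 0.0484). Fabp4, the fatty acid binding protein of fat cells, was picked after its values were seen: it read 104 and 69.5 in the Wnt3A arrays, against 723 and 895 in the Control arrays, with a log2 change of -3.23 ± 0.35 that did not pass (adjusted p 0.0576). The 4 calls were lost without Wnt3A replicate 1, without Wnt3A replicate 2, without Control replicate 1 and without Control replicate 2, where limma called 0 genes of the whole array. In such a fit the lone array of a group is assumed to vary like the arrays of the other group. In those 4 fits the change stayed between -4.14 and -3.93 for Plin4, -3.48 and -3.36 for Lpl, -4.11 and -3.58 for Cd36, and -5.01 and -4.01 for Adipoq. The call of Plin4 held with no filter on dim probes (adjusted p 0.0463) and with genes above the floor in every array (0.0379), while those of Lpl (0.0596 and 0.0504), Cd36 (0.0633 and 0.0520) and Adipoq (0.0763 and 0.0583) did not. Cd36 had a log2 change of -2.21 when its 2 probes were averaged (adjusted p 0.0970), and Adipoq an adjusted p of 0.0546 when all kept probes were adjusted for. In the scanner files Plin4 gave -0.28 and -0.08, Lpl -0.09 and -0.02, Adipoq -0.32 and -0.13, and Cd36 turned to 0.37 and 0.25.

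Genes that C/EBPβ and C/EBPδ switch on in the acute-phase response were read in the same way. Of 7 tested (Il6 was below the floor), 2 fell and 0 rose, 7 had a negative change, and the median log2 change was -1.90, the same with Lcn2 set at its bound. Lcn2, a secreted iron-siderophore carrier, read 0.0118 and 0.0162 in the Wnt3A arrays, both below the floor, against 61.4 and 33.5 in the Control arrays. In the deposited table it was at least 722-fold lower (361-fold with a floor 2 times as high). It entered the test through the Control arrays alone, and its adjusted p of 0.0190 rests on Wnt3A values below the floor. Hp, which encodes haptoglobin, read 1.14 and 2.44 in the Wnt3A arrays, against 50.2 and 81.5 in the Control arrays, and fell by 5.25 ± 0.50 on the log2 scale (adjusted p 0.0452). Both calls were lost without any 1 of the 4 arrays (adjusted p 0.119 to 0.167 for Lcn2 and 0.135 to 0.194 for Hp), where the Hp change stayed between -5.79 and -4.72. The call of Hp was also lost with no filter (0.0707), with genes above the floor in every array (0.0568) and when all kept probes were adjusted for (0.0507). In the scanner files Hp turned to 1.01 and 0.62. Lcn2 was not tested there, since its probe was well above background in only 1 Wnt3A and 1 Control file. The Lcn2 change in the scanner files was -2.39 and -0.50, far smaller in size than in the table. The lists of target genes share fat cell and inflammatory genes that other factors also control.

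Lists of other regulators held changes in both directions. Of 14 other pro-adipogenic regulators tested (Fgf10 was below the floor), 0 passed in limma, 2 were higher and 1 lower at an unadjusted p under 0.05, and the median was -0.20. The groups were apart with Wnt3A lower in 4 and higher in 5 of them, and 9 of 14 had a negative change. Irs1, the insulin receptor substrate, read 10.6 and 11.7 in the Wnt3A arrays, against 2.47 and 0.981 in the Control arrays (log2 change 2.85 ± 0.56, adjusted p 0.158). Bmp4, a growth factor that commits precursors, read 53.3 and 49.6 in the Wnt3A arrays, against 24.1 and 27.4 in the Control arrays (1.01 ± 0.28, adjusted p 0.251). Of 18 anti-adipogenic regulators, 0 passed, 2 were higher and 4 lower at an unadjusted p under 0.05 in limma (6.78% and 6.94% of all genes). Their median was -0.43, and 11 of 18 had a negative change (51% of all genes). The groups were apart with Wnt3A lower in 8 of the 18 and higher in 3 (24.4% and 21.1% of all genes). Pdgfra, the PDGF receptor of stromal precursors, read 13.1 and 8.99 in the Wnt3A arrays, against 42.1 and 64.1 in the Control arrays (-2.25 ± 0.38, adjusted p 0.122). Id2, an inhibitor of helix-loop-helix factors that some studies find to favour fat cells, had a log2 change of -1.58 (adjusted p 0.134). Of 13 PPARγ cofactors, 0 passed, 3 were higher and 0 lower at an unadjusted p under 0.05, and the median was 0.02. The groups were apart with Wnt3A lower in 4 and higher in 5 of them, and 6 of 13 had a negative change. The corepressor gene Nrip1 had a log2 change of 1.43 (adjusted p 0.244), with 1 of its 3 probes the other way.

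**Figure D5:**
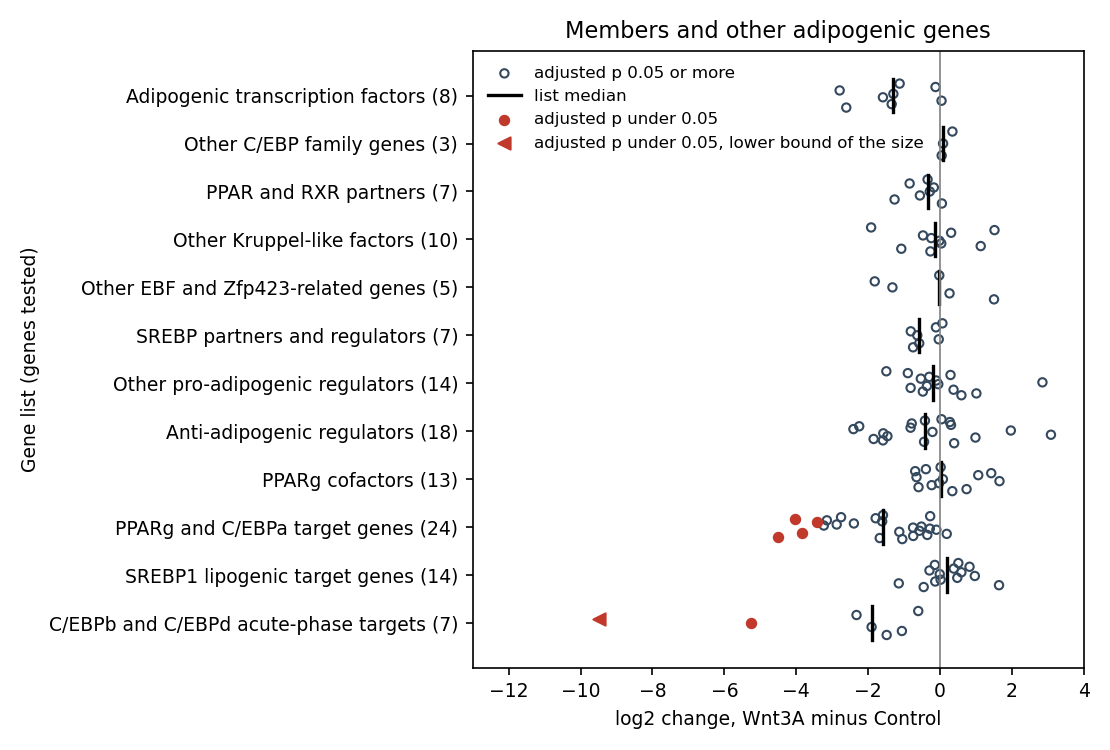
Log2 change, Wnt3A minus Control, of every tested gene of the 8 transcription factors and of 11 lists of related genes, with the number tested in parentheses. Filled red symbols passed an adjusted p of 0.05 in limma, open circles did not, the triangle is the bound of Lcn2 and black bars are list medians. The transcription factors (median -1.32), the PPARγ and C/EBPα targets (-1.60) and the acute-phase targets (-1.90) lie to the left, while the SREBP1 targets (0.20) and the cofactors (0.02) straddle 0.

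Markers of other cells were read beside these results. Of 9 macrophage markers, 9 were above the floor on every array, with a summed intensity of 12.9 and 12.3 in the Wnt3A arrays, against 16.8 and 13.5 in the Control arrays. Ptprc, the pan-leukocyte gene, was the dimmest of them, at 0.112 to 0.190. Cd68 read 1.69 and 2.34 in the Wnt3A arrays, against 6.11 and 4.49 in the Control arrays. The groups were apart with Wnt3A lower in 2 of the 9, Cd68 and Aif1 (24.4% of all genes). They were apart with Wnt3A higher in 4 of the 9 (21.1% of all genes). The median macrophage marker in the table was 0.992 and 1.27 in Wnt3A, against 0.738 and 0.990 in Control. In the scanner files, before scaling, it was 608 and 2261 in Wnt3A, against 29.7 and 2156 in Control. The median of all probes there was 144 and 93.4 in Wnt3A, against 7.09 and 176 in Control. Macrophage markers thus lay near the array median in the table and well above it in the scanner files. The 8 lymphocyte markers summed to 23.4 and 24.4 in the Wnt3A arrays, against 26.0 and 18.5 in the Control arrays. Cd4 alone carried 13.8 and 14.2 of these in Wnt3A, and 11.3 and 10.1 in Control. Their median in the scanner files was 227 and 998 in Wnt3A, against 16.7 and 297 in Control. Of 6 endothelial markers, Kdr and Tek were below the floor on all 4 arrays, and the sum was 7.13 and 6.25 in the Wnt3A arrays, against 4.06 and 5.81 in the Control arrays. Vwf alone carried 5.92 and 5.38 of these in Wnt3A, and 2.89 and 3.61 in Control. The 10 stromal markers summed to 1317 and 1448 in the Wnt3A arrays, against 370 and 583 in the Control arrays. Within that list the collagens Col1a1, Col1a2 and Col3a1 were higher in both Wnt3A arrays, and Pdgfra, Cxcl12 and Vcam1 were lower. The collagens carried the sum. The other 7 markers summed to 39.0 and 27.3 in the Wnt3A arrays, against 73.7 and 107 in the Control arrays, and over all 10 the log2 change was under 0 in 6, with a median of -0.08. Nt5e, below the floor in both Control arrays, was at least 53.1-fold higher in Wnt3A in the deposited table (26.6-fold with a floor 2 times as high). It entered the test through the Wnt3A arrays alone, and the floor is only an estimate. The part of stromal cell makeup in the change of Pparg and Cebpa was not tested.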

How the data were processed

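RNA of OP9 cells was amplified by a global PCR protocol, labelled with Cy3 and hybridised to 1-colour Agilent mouse arrays, per the labels' protocols. Amplification by PCR can change the ratios of transcripts. The deposited table holds a linear intensity per spot with a median of 1 in each column (43379 spots), and how the authors scaled it is not given in the sources used here, so its centring and any background step are unknown. The scanner files hold intensity values and flags from Agilent Feature Extraction 10.5.1.1, per the file headers. No table column went unused. All 4 scanner files carry 1 slide and 1 scan, so these could not be tested as a batch.

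Table values were taken to log2, less the 75th percentile of each array, and spots of a probe were averaged. Names came from RefSeq through the transcript identifier (24375 probes) or the symbol (8727), and 8072 kept the file's name. Probe positions are on mm8 as the files give them. A genome was not used here, so exon, intron and UTR annotation is not given. The floor was 4.94 times the 1st percentile of each column. In each scanner file the dimmest spot flagged well above background was divided by the file's 1st percentile, and the factor is their median. It comes from scanner files that did not follow the table, so the floor is only an estimate. A probe had to exceed it in every Wnt3A array or in every Control array, and the brightest such probe stood for the gene. The test was limma (version 3.58.1, R 4.3.3; lmFit, eBayes), two-sided, on 2 residual degrees of freedom with a prior of 2.29, with Benjamini-Hochberg adjustment over 22859 genes and a threshold of 0.05. An exact test of 2 against 2 arrays cannot give a two-sided p below 0.333. The fit was also run on simulated data with independent normal noise of the fit's own variances. That run cannot show how PCR amplification, possibly technical replicates or the unknown scaling affect the test.

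The members, the lists and the choice of the table over the scanner files were made with earlier results of these data known, so that none of them is blind to the outcome. The text names every member and, per list, the genes that passed or else the 2 with the smallest p, except 1 gene that is not reported here. Both groups share replicate numbers. The deviations of same-numbered arrays from their group means had a correlation of 0.0153 across genes. The labels state no pairing, and this single value cannot exclude one, so the main fit used none. Alternatives were the scanner values, other scalings and filters, the mean of a gene's probes, other limma settings, the replicate block, and each array left out in turn.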

Additional observations from a re-analysis of the deposited data

How the results depend on the processing

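No member passed under any of the 15 alternatives run (adjustment over all kept probes was chosen after seeing the data), and slide or scan as a block was not run, since the files hold 1 of each. The adjusted p of Pparg ran from 0.0566 (trend and robust settings) to 0.285 in the table. The 174 genes called on the whole array became 2 with scanner values at the 75th percentile, 0 with normexp and quantile normalization, 82 with no filter, 40 where every array had to exceed the floor, and 0 in each of the 4 fits with 1 array left out (2362 to 2964 at an unadjusted p under 0.05). With the replicate block limma called 0 genes (3097 at an unadjusted p under 0.05) and 0 members. The labels give same-numbered arrays no link beyond the number.

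Among members, scanner values at the 75th percentile turned Zfp423 (0.039) and Srebf1 (0.10), and normexp turned Srebf1 (0.47). Ebf1 was read there by its second probe, dim in the Control files (3.09 and 0.76), as its main probe did not pass the scanner filter. Nrip1 was also read by another probe, the brightest of those kept there. Its main probe passed the scanner filter and turned in both settings (-1.36 and -0.59, against 1.43 in the table). Leaving out 1 array gave changes of -0.65 to 0.74 for Cebpd and -0.43 to 0.19 for Srebf1. Among 24 other named genes measured in both, 14 turned at the 75th percentile: Ddit3 -0.53, Cebpz -0.43, Rxrb 1.54, Klf7 -0.10, Ebf2 -0.54, Mlxipl 0.10, Irs1 -0.52, Bmp4 -1.33, Id2 1.90, Nrip1 -0.091, Cd36 0.37, Acacb -0.66, Acly 0.33 and Hp 1.01. With normexp 15 turned: Ddit3 -0.62, Cebpz -0.51, Nr1h3 0.049, Rxrb 1.24, Klf7 -0.20, Ebf2 -0.15, Mlxipl 0.17, Insig2 0.26, Irs1 -0.42, Bmp4 -0.83, Id2 1.05, Cd36 0.25, Acacb -0.44, Acly 0.19 and Hp 0.62. Ddit3 ran from -0.58 to 1.27 with 1 array left out. Klf7 and Irs1 passed under 1 alternative each (adjusted p 0.0428 with trend and robust settings and 0.0435 when probes of a gene were averaged), and Fabp4 under 2. The cause of the difference between the table and the scanner files was not tested. A fit with 1 array left out has fewer degrees of freedom, and what lowered the counts under each alternative was not tested.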
